A study of Homo sapiens with 3 samples.

Results

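The proteasome genes were followed in HT29 cells given a linderapyrone derivative. The members were all genes whose symbol in the platform annotation is PSMA to PSMG followed by a number, except the inducible subunits PSMB8, PSMB9 and PSMB10. This gave 42 of the 18639 genes on the array, represented by 46 of its 24460 gene probes. They comprised 8 alpha subunits of the core (PSMA), 8 beta subunits (PSMB), 5 ATPases of the cap (PSMC), 12 other cap subunits and cap chaperones (PSMD), 4 activators (PSME), the inhibitor PSMF1 and 4 chaperones of core assembly (PSMG). The rule also covers PSMC5, PSMD7 and PSMD13, which were not analysed here. The rule uses names and no measured value, but the members were chosen with earlier results of these data known.

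HT29 is an established human colorectal cancer cell line. Cells were kept for 24 h in DMSO as the solvent control or in the derivative at 5 or 20 µM. RNA amplified from the total RNA was then hybridised to a 1-colour oligonucleotide array. The titles write these doses in mM, the treatment labels in µM, and the latter was used. There was 1 array per group. The spread between cultures is therefore unknown, no test was possible, and this sets the precision of all differences below.

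The proteasome is the protease that degrades most short-lived and misfolded proteins after they are tagged with ubiquitin. Its core is a barrel of alpha and beta rings with the catalytic sites on the inner beta rings, and its cap binds the ubiquitin chain, unfolds the substrate with a ring of ATPases and threads it into the core. When proteasome capacity is short, cells can raise the subunit genes together through the transcription factor NRF1, encoded by NFE2L1, which recognises antioxidant response elements in their promoters.

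The median spot signal was 117 for the DMSO array, 107 for 5 µM and 110 for 20 µM, and in unnormalized signal 97.5% of the detected genes were dimmer at 5 µM than in DMSO and 81.9% at 20 µM. All values below are therefore on quantile-normalized arrays unless said otherwise. Normalized signal is the background-corrected brightness plus an offset of 50, and a log2 ratio compares it between arrays. Pairs of probes for the same gene gave a technical SD of a single log2 ratio of 0.14 at 20 µM and 0.11 at 5 µM. Both probes lay on the same arrays, so this SD leaves out the spread between arrays. It was taken over genes of all brightness, not over bright ones alone. Members were counted as past a mark when the log2 ratio was at least 0.32 above or below 0, which is 25% higher or 20% lower. Of the colon epithelial markers, 11 of 12 had a probe, all 11 were detected on every array and 7 exceeded 2 times the detection threshold on each. Among these were EPCAM and KRT18, while the intestinal genes CDH17 and CDX2 were at most 92.6, close to the DMSO threshold of 82.5. Of 13 probes for markers of blood, endothelium and fibroblasts, 2 exceeded 2 times the threshold, LYZ at 15819 and DCN at 231 in DMSO. PTPRC at 81.3, PECAM1 at 80.5 and COL1A1 at 80.6 did not reach it.

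All 42 members were detected on the 3 arrays, and 38 exceeded 2 times the threshold on each. The other 4 were PSMA8, the alpha subunit of male germ cells, PSMB11, the thymic beta subunit, PSME3 and PSMF1. Their spot signals were 83.6 to 115, close to the threshold, so their ratios carry little information.

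At 20 µM the proteasome genes were mostly lower than in DMSO, by small amounts. Of 42 members, 34 had a log2 ratio below 0, where 47.1% of all detected genes did, while the other 8 lay above 0. There were 13 members past the mark on the low side, against 7.32% of all genes, and 0 on the high side, against 5.85%. No member was 2-fold lower or higher; 0.324% and 0.442% of all genes were. The median ratio of the members was -0.13 and that of all 16062 genes 0.0071. Ratios were more widely spread among bright genes, and 37 of the 42 members were bright. Among the 2772 genes with a DMSO spot signal of at least 500, 54.6% were below 0, 19.4% were past the low mark and the median was -0.037. The 37 members in that range had 30 below 0, 13 past the low mark (35.1%) and a median of -0.16. Those 13 were past it under median scaling too, which gave 18, against 11.1% of all genes. They were also past it in the authors' value table, which gave 13, against 10% of all genes. The members above 0 were fewer under median scaling, 5 in place of 8: PSME4, PSMD9 and PSMC6, and the dim PSMA8 and PSMF1. With the scanner's own background column subtracted, the members' median was 0.80, opposite in sign. That column rose with the brightness of the spot it belongs to (Spearman correlation 0.967 across spots in DMSO).

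**Figure D1:**
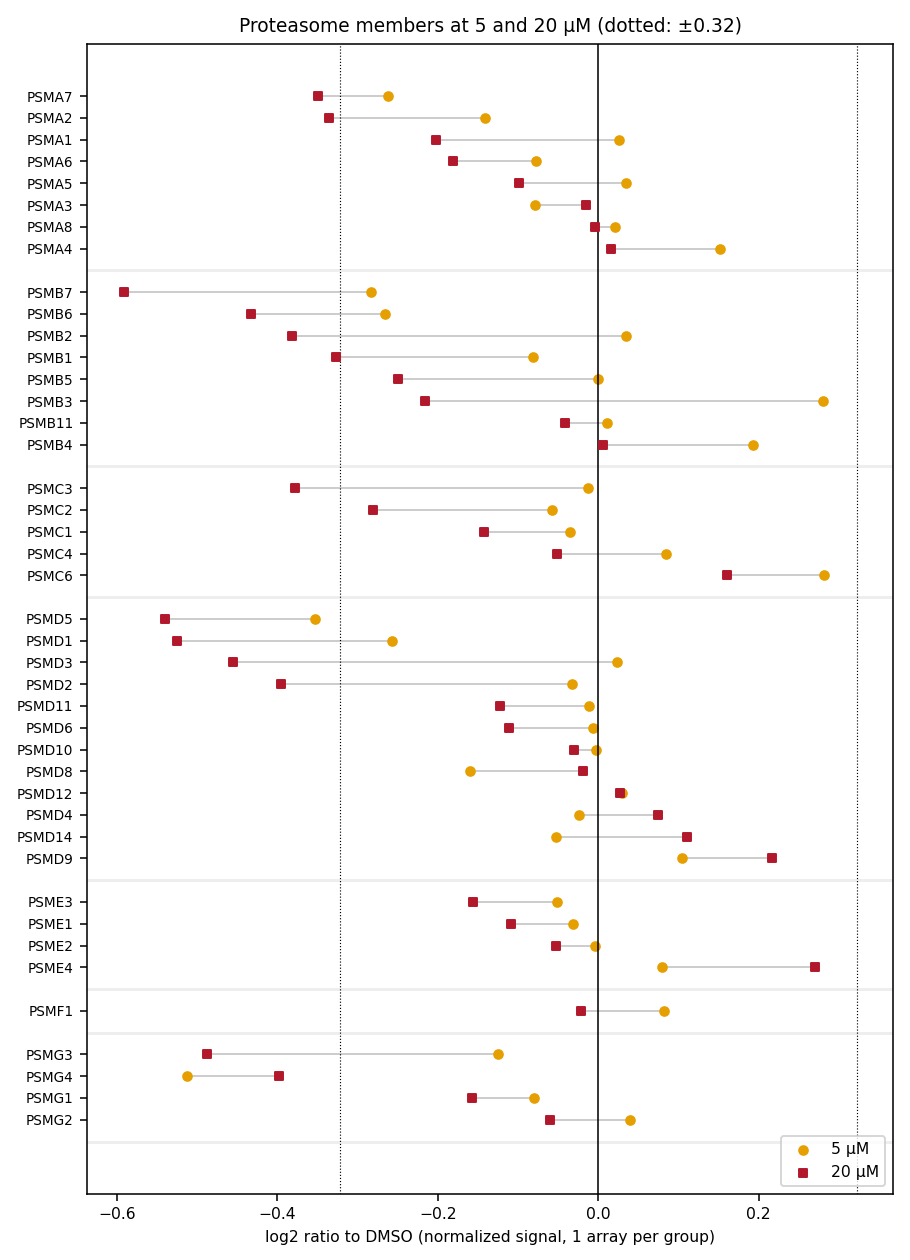
Log2 ratio of each of the 42 members to DMSO (horizontal axis) at 5 µM (circles) and 20 µM (squares), grouped by family and ordered by the ratio at 20 µM; 1 array per group, so there are no error bars, and dotted lines mark 0.32 to either side of 0. At 20 µM 13 squares lie left of the lower line, from PSMB7 at -0.59 to PSMB1 at -0.33, and 0 right of the upper one.

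The beta ring held the lowest member. PSMB7, which carries the trypsin-like site, had a normalized signal of 4291 on the DMSO array, 3526 at 5 µM and 2848 at 20 µM, 1.51-fold lower at the higher dose. Triplets of normalized signals follow this order, DMSO, 5 µM and 20 µM, from here on. PSMB6, which carries the caspase-like site, read 2449, 2037 and 1814, a log2 ratio of -0.43 at 20 µM. Both genes stepped down at each dose. PSMB5, which carries the chymotrypsin-like site and is the target of bortezomib, read 1067 in both DMSO and 5 µM and 898 at 20 µM, a log2 ratio of -0.25 that falls short of the mark.

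The beta subunits without a catalytic site were mixed. PSMB2 read 1151, 1179 and 884, lower at 20 µM only, with a ratio of -0.38. PSMB1 read 7454, 7042 and 5941, a ratio of -0.33 at 20 µM. PSMB3 read 2925, 3551 and 2519, highest at 5 µM and lowest at 20 µM. PSMB4 read 2143, 2449 and 2151, at the DMSO level again at 20 µM. Of the 8 beta genes, 7 were below 0 at 20 µM and 4 past the low mark, and their median was -0.29.

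The alpha ring, which gates entry to the core, had a median of -0.14 at 20 µM, with 7 of 8 genes below 0 and 2 past the low mark. PSMA7 went from 8972 over 7485 to 7042, a log2 ratio of -0.35 at 20 µM. PSMA2 followed with 8053, 7304 and 6381, a ratio of -0.34. PSMA4, at 5043, 5603 and 5097, was the 1 alpha gene above 0, with a ratio of 0.015. The others lay between -0.20 for PSMA1 and -0.0040 for PSMA8.

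Among the ATPases that unfold substrates, PSMC3 was lowest, with 2681, 2656 and 2063 for DMSO and the rising doses. Its ratio was -0.38 at 20 µM and -0.013 at 5 µM. PSMC2 stood at -0.28, PSMC1 at -0.14 and PSMC4 at -0.051. PSMC6 went the other way, with 493, 599 and 551, a log2 ratio of 0.28 at 5 µM and 0.16 at 20 µM. The ATPase median at 20 µM was -0.14, and 1 of 5 genes was past the low mark.

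The other cap genes spanned ratios from -0.54 to 0.22. The pair of large scaffolds of the base, to which ubiquitin receptors and shuttles dock, were both low: PSMD1 read 1673, 1400 and 1162, a log2 ratio of -0.53, and PSMD2 read 805, 787 and 612, a ratio of -0.40. PSMD3, a structural subunit of the lid, read 729, 741 and 532, a ratio of -0.46 at 20 µM against 0.024 at 5 µM. By contrast PSMD14, the lid enzyme that cuts the ubiquitin chain off the substrate, read 1981, 1910 and 2139, and the ubiquitin receptor PSMD4 read 4222, 4152 and 4447. These readings correspond to ratios of 0.11 and 0.075 at 20 µM, both smaller than the technical SD and both below 0 under median scaling. The lid subunit PSMD12 stood at 0.027 at 20 µM. PSMD8, also of the lid, had a ratio of -0.16 at 5 µM and -0.019 at 20 µM.

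PSMD5, PSMD9 and PSMD10 are chaperones that help to assemble the base and are not part of the finished cap. PSMD5 read 503, 394 and 346, 1.45-fold lower at 20 µM, and was 1 of 2 members past the mark at 5 µM. PSMD9 ran in the opposite direction, with 470, 505 and 546, and PSMD10, gankyrin, stood at -0.0026 at 5 µM and -0.031 at 20 µM. Of the 12 PSMD genes, 8 were below 0 at 20 µM and 4 past the low mark, and their median was -0.071.

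The chaperones that build the core were below 0 at 20 µM in 4 of 4 cases, with a median of -0.28. PSMG3 read 578, 530 and 412, a log2 ratio of -0.49. PSMG4, which forms a pair with PSMG3, read 799, 560 and 606 and was the lowest of all members at 5 µM, at -0.51, against -0.40 at 20 µM. Its second probe, dim with signals of 95.1 to 106, gave -0.065 and -0.048. PSMG1 and PSMG2 form the other pair and stood at -0.16 and -0.060 at 20 µM. A second bright probe of PSMG2 gave -0.17 at 5 µM and 0.013 at 20 µM, against 0.040 and -0.060 for the probe used here, and another exceeded its threshold on 1 array.

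Of the 4 activators 0 were past the mark, and their median was -0.080. PSME4, encoding the nuclear activator PA200, had the highest ratio of all members at 20 µM, 0.27, its signal going from 241 over 255 to 290. The interferon-inducible pair PSME1 and PSME2 stood at -0.11 and -0.053, the dim nuclear activator PSME3 at -0.16 and the inhibitor PSMF1, as dim, at -0.022.

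NRF1 and its relative NRF2 bind antioxidant response elements, and the members' promoters were searched for the element's core. The sequences, from RefSeq on GRCh38.p14, run from 250 bases before to 50 after each start, and 36 of the 42 members matched, with 43 promoters. PSMA7, PSMB1, PSMB6, PSMB7, PSMD4 and PSMG3 had no entry. The core TGACNNNGC, searched on both strands, occurred in 13 of the 43 (30.2%), each of a different gene, and in 13.3% of all 35116 promoters. The shorter NF-Y motif CCAAT, on both strands, occurred in 17 (39.5%) and in 34.6% of all. The core stood both in low and in high members at 20 µM: it was found in PSMD5, PSMD1 and PSMD3, but also in PSME4 and PSMD9. Most genes with the core lay between these, with ratios from -0.22 for PSMB3 to 0.027 for PSMD12. PSMC6, PSMD2 and PSMC3 had none in this window. A match describes letters only, not a site that is bound.

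The promoters of a pair of low and a pair of high members with the core are printed because the core was present at both ends of the range. They are PSMD5 (chr9:120842873-120843172, minus strand), PSMD3 (chr17:39980557-39980856, plus strand), PSMD9 (chr12:121888540-121888839, plus strand) and PSME4 (chr2:53970944-53971243, minus strand), each read 5′ to 3′ along the gene. Capitals mark the core, which reads as GCNNNGTCA where it lies on the other strand.
PSMD5: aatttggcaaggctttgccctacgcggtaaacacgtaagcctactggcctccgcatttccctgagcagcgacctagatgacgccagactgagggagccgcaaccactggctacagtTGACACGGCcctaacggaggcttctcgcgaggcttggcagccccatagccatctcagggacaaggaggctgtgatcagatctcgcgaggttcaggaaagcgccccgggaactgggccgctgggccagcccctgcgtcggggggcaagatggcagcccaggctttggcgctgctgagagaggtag
PSMD3: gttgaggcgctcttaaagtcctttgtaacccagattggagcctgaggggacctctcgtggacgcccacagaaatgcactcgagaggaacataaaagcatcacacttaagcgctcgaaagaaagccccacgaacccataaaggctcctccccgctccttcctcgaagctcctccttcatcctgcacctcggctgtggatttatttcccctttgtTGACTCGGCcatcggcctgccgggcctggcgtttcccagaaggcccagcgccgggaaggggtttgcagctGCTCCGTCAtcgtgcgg
PSMD9: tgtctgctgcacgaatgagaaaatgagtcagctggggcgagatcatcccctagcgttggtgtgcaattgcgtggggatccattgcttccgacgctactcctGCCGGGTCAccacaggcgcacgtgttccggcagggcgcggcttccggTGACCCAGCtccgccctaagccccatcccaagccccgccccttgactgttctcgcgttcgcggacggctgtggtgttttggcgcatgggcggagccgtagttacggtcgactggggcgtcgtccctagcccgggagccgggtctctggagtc
PSME4: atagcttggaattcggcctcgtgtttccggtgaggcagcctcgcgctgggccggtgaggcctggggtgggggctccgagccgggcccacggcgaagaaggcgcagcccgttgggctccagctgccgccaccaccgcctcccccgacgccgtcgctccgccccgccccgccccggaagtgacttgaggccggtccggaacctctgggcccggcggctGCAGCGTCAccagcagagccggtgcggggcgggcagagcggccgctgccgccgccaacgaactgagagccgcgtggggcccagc

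In PSMD5 the core begins 134 bases before the start, in a gene with a ratio of -0.54 at 20 µM. PSMD3, at -0.46, holds one 37 bases before the start and another after it on the other strand. PSMD9, at 0.22, holds a pair, 149 and 102 bases before the start, and PSME4, at 0.27, has one 34 bases before it on the other strand.

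**Figure D2:**
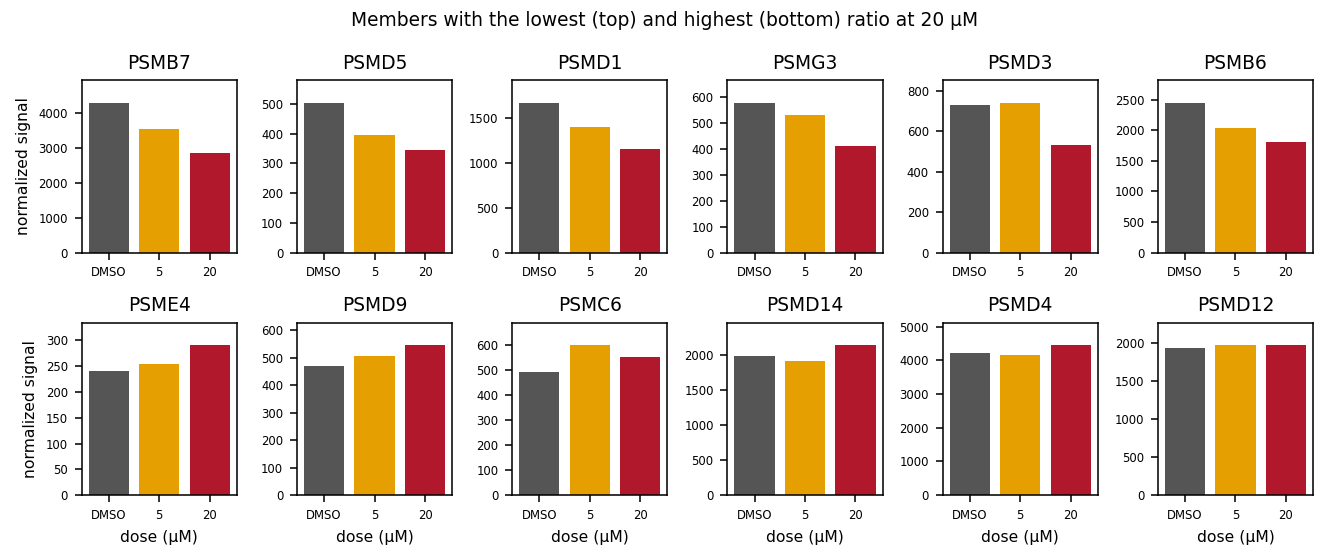
Normalized signal (vertical axis, linear, starting at 0) on the DMSO, 5 µM and 20 µM arrays, 1 array per bar, for the 6 members with the lowest ratio at 20 µM (top) and the 6 with the highest (bottom). PSMB7 goes from 4291 to 2848 while PSME4 goes from 241 to 290; PSMD3 is lower at 20 µM only.

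At 5 µM the proteasome genes as a family were close to DMSO. Of 42 members 25 were below 0, where 47.9% of all genes were, and the median was -0.013 against 0.0043 over all 16075 genes. PSMD5 at -0.35 and PSMG4 at -0.51 were the 2 members past the low mark, a share of 4.76% against 1.87% of all genes and 5.63% of genes with a DMSO signal of at least 500. Of the latter, 53.2% were below 0. There were 0 members past the high mark, against 1.82% of all genes, and 0 that differed 2-fold, against 0.0498% higher and 0.00622% lower. PSMC6 and PSMB3, both at 0.28, and PSMB4 at 0.19 were highest, but under median scaling they stood at 0.072, 0.041 and -0.050. Median scaling, which moves all probes of an array by a single factor, gave a members' median of -0.23. It put 12 members past the low mark, against 9.39% of all genes. The median of the genes with a DMSO signal of at least 500 was then -0.24. The bright members thus differed from all bright genes by -0.011 under quantile normalization and -0.027 under median scaling.

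Between the doses, 35 of 42 members were lower at 20 than at 5 µM, where 50.4% of all genes were, and the median was -0.11 against -0.0011. There were 6 members past the low mark, against 3.99% of all genes and 12.6% of the bright ones, of which 54.4% were below 0. There were 0 past the high mark, against 3.98%, and 0 that differed 2-fold, against 0.131% higher and 0.0935% lower. PSMB3 at -0.50, PSMD3 at -0.48 and PSMB2 at -0.42 were lowest, and PSME4 at 0.19, PSMD14 at 0.16 and PSMD8 at 0.14 were highest. Under median scaling the count was 2, PSMB3 and PSMD3, against 2.41% of all genes. The members' median was then -0.023, while that of bright genes was 0.083. Both comparisons with DMSO share its array and the doses share the 5 and 20 µM arrays, so the 3 sets of ratios are not independent. In all, 20 members were lower at each step, PSMB7 and PSMD1 among them, and 14 of these remained so under median scaling. PSMD9 and PSME4 were the 2 members higher at each step, but under median scaling they were below DMSO at 5 µM. A further 10 were above DMSO at 5 µM and below it at 20 µM, of which 2 remained so under median scaling and 3 in the authors' value table. These step classes were counted for members only, so their share among all genes is unknown.

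**Figure D3:**
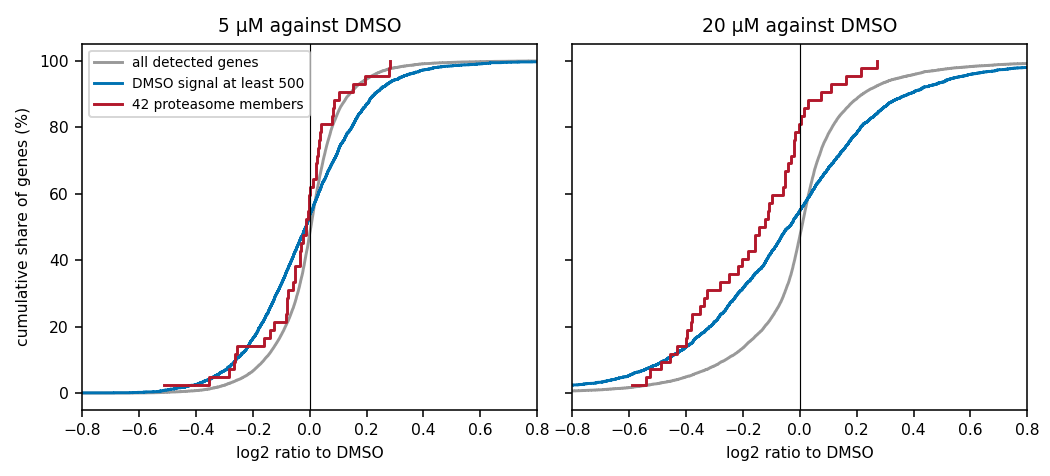
Cumulative share of genes (vertical axis, percent) with a log2 ratio to DMSO up to the value on the horizontal axis, for all detected genes, those with a DMSO spot signal of at least 500, and the 42 members. At 5 µM 59.5% of members and 47.9% of all genes lie below 0; at 20 µM the members' curve is shifted left, with 81.0% below 0 against 47.1%.

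**Figure D4:**
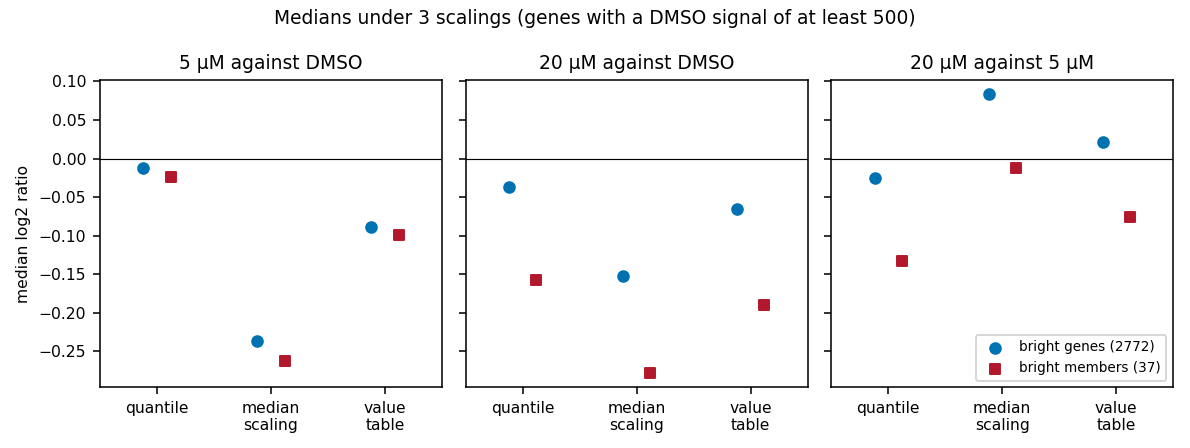
Median log2 ratio of the 37 members and of all 2772 genes with a DMSO signal of at least 500, under quantile normalization, median scaling and in the authors' value table, for each comparison; 1 array per group and no error bars. The height of both points moves with the scaling, while members lie below all bright genes by 0.12 to 0.13 at 20 µM and by 0.011 to 0.027 at 5 µM.

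The inducible catalytic subunits, which replace the constitutive ones in the immunoproteasome after interferon, provided a contrast within the same complex. PSMB9, the counterpart of PSMB6, read 581, 530 and 783, a log2 ratio of 0.43 at 20 µM. PSMB10, the counterpart of PSMB7, read 440, 470 and 503. PSMB8, the counterpart of PSMB5, read 536, 437 and 579, though its second probe gave 0.16 at 5 µM where this one gave -0.29. At 20 µM all 3 inducible genes were above 0 and all 3 constitutive ones below it. Of all 16062 detected genes, 8478 were above 0 and 7570 below it. Among the inducible genes only PSMB9 was past the high mark, where 5.85% of all genes were. PSMB10 at 0.19 and PSMB8 at 0.11 fell to 0.076 and 0.0077 under median scaling. The ratio of PSMB8 was smaller than the technical SD of 0.14. The inducible gene exceeded its counterpart by 0.86 for PSMB9, 0.78 for PSMB10 and 0.36 for PSMB8 in log2 ratio. A scale factor common to an array cancels in such a difference, and median scaling gave 0.89, 0.79 and 0.37. A shift between arrays that depends on brightness need not cancel, and each constitutive gene was brighter in DMSO than its counterpart. How far such a shift adds to the differences was not tested. At 5 µM the differences were 0.13, 0.38 and -0.29. With the scanner's background column subtracted, all 3 inducible genes were above 0 at 20 µM, but not every pair kept its order. PSMB7 was then at 2.89, above PSMB10 at 0.24, while PSMB6 was at -2.16 and PSMB9 at 0.0034.

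**Figure D5:**
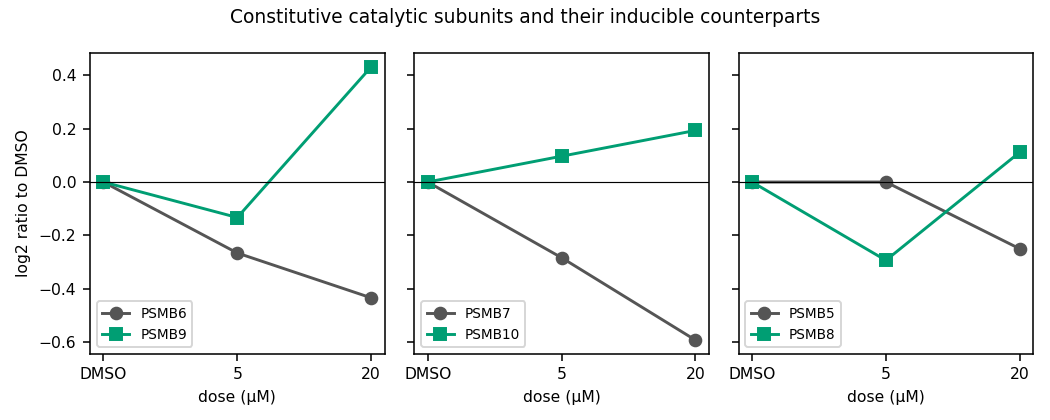
Log2 ratio to DMSO (vertical axis) by dose for each constitutive catalytic subunit (circles) and its inducible counterpart (squares), 1 array per point, with DMSO at 0 by construction. At 20 µM each inducible gene lies above 0 and its counterpart below it, most widely for PSMB9 at 0.43 and PSMB6 at -0.43. PSMB8, at 0.11, lies nearest 0 among the inducible genes.

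Genes that process NRF1 or regulate the subunit genes had ratios above 0 while most subunits had ratios below it. The list was chosen with earlier results of these data known. Of all 16062 detected genes, 8478 were above 0 at 20 µM and 5.85% past the high mark. Among the 2772 genes with a DMSO signal of at least 500, 346 were past it. Most genes on the list were dimmer than 500, so those bright genes do not match them. Of 13 detected genes on this list, 13 were above 0 at 20 µM and 6 past the high mark, and the median was 0.25. Under median scaling these values were 13, 5 and 0.14, and with the mean of all probes 12 were above 0. With the scanner's background column subtracted 7 were above 0, 1 was past the high mark and 2 past the low one, and the median was 0.088. Under that column 9.64% of all genes were past the low mark. Over the 10 genes above 2 times the threshold, 10 were above 0 and 4 past the high mark. The share of all such genes past the high mark was not counted. NFE2L1, whose product binds elements with the core printed above, read 279, 297 and 426, a log2 ratio of 0.61. SEL1L, part of the membrane complex through which NRF1 leaves the endoplasmic reticulum, read 111, 155 and 187, a ratio of 0.76. The NRF1 partner MAFF had a ratio of 0.60 and NFYA, a subunit of the CCAAT-binding factor NF-Y, one of 0.47. At 5 µM 8361 of all 16075 genes were above 0 and 1.82% past the high mark. On the list 11 of 13 were above 0 and 3 past the high mark, and the median was 0.12. Under median scaling these values were 7, 2 and 0.011. The 3 past the high mark were SEL1L at 0.48, its partner ligase SYVN1 at 0.41 and VCP at 0.44. VCP is the ATPase that extracts NRF1 and other proteins from the membrane. SYVN1 and SEL1L were dim, with DMSO spot signals of 104 and 145, so their ratios are less certain. MAFF at 170 and NFYA at 189 in DMSO were only just above 2 times the threshold. Of the 10 genes above 2 times the threshold, 1 was past the high mark at 5 µM, and without background correction 2 of 13 were.

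Proteins that attach to the proteasome or help it form had a median of 0.032 at 20 µM over 14 genes, which turned to -0.055 under median scaling. ZFAND2A, a stress-induced partner of the cap, was far above the rest, with 312, 598 and 995, a log2 ratio of 1.67 at 20 µM. TXNL1, a thioredoxin-like protein bound to the cap, followed at 0.34, ECPAS at 0.28 and the ubiquitin ligase UBE3C at 0.17. POMP, which matures the core, stood at -0.078 and the ubiquitin receptor ADRM1 at -0.17. Of 13 shuttles and VCP cofactors, 7 were above 0, as were 8478 of all 16062 detected genes. The median of the 13 was 0.029 and turned to -0.074 under median scaling. Past the high mark were 2 of the 14 partners and 1 of the 13 shuttles and cofactors, against 5.85% of all genes. On both lists 0 were past the low mark, against 7.32%. SQSTM1, the receptor p62, read 3318, 6546 and 12630, a ratio of 1.93. The shuttle RAD23B stood at 0.20, the ligase STUB1 at -0.14 and the VCP cofactor NSFL1C at -0.29. Of the 3 genes for ubiquitin and its activating enzymes, UBA1, the main activating enzyme, read 399, 416 and 276, a ratio of -0.53 at 20 µM. UBA6 stood at 0.12 and the ubiquitin gene UBB at 0.034. With the scanner's background column subtracted, 2 partners were past the high mark at 20 µM and 5 past the low one. For shuttles and cofactors these counts were 4 and 2. Under that column 9.64% of all genes were past the low mark. The median of the 3 ubiquitin and activating enzyme genes was then -0.80, in place of 0.034.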

How the data were processed

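The authors deposited 1 scanner file per array. Per the file headers it holds the median intensity of each spot at 635 nm, read at 3 gains, and a local background column. The authors' value table, deposited for the same arrays, holds an intensity per probe with a median of 25 on each array; set against the scanner signals its scale is linear, but the steps that produced it are unstated. Per the labels' protocols the RNA was amplified as amino allyl aRNA.

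Signals were corrected with normexp in limma 3.58.1 (R 4.3.3, offset 50, all spots), put on log2 and quantile normalized over 24460 gene probes. The steps were run on simulated arrays that differed, apart from noise, by a constant factor and by planted changes in bright genes. Those changes were larger than the members' median ratio. The simulation therefore does not cover small changes or shifts between arrays that depend on brightness. A probe was detected above the mean plus 2 SD of 480 blank and negative control spots, trimmed by 5% at each end. Of several probes, the one detected on most arrays and then brightest stood for the gene. Alternatives were median scaling, no background correction, an offset of 16, the value table, 2 filters, the mean of probes and, added later, the background column. Members, lists and named genes (the largest and smallest ratios overall and per family) were chosen with earlier results of these data known. Tables and plots used Python 3.11.15, numpy 2.4.6, pandas 2.3.3 and matplotlib 3.10.9.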

Additional observations from a re-analysis of the deposited data

How the results depend on the processing

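The members' median at 20 µM against DMSO ranged from -0.24 to -0.12, leaving aside the scanner's background column. The 5 µM result depended on the scaling: median scaling gave a median of -0.23 and 12 members past the low mark of 0.32, in place of -0.013 and 2. The share of all genes past that mark was then 9.39% in place of 1.87%. The count was 5 in the authors' value table, against 4.54% of all genes, and 1 with the mean of probes, against 1.68%. For 20 against 5 µM, median scaling gave 2 members past the low mark in place of 6, and 2.41% of all genes in place of 3.99%. No background correction, an offset of 16 and both detection filters kept every count of members within 1.5 times. The background column, whose Spearman correlation with the spot's own signal was 0.967 in DMSO across spots, gave medians of 0.80 at 20 µM and 0.51 at 5 µM. It gave 27, 24 and 12 members past the high mark at 20 µM, at 5 µM and for 20 against 5 µM. The share of all genes past the high mark was not counted under this column. At 20 µM 5 members were past the low mark, against 9.64% of all genes. Under it the sign turned for 27 of 42 members at 20 µM, 22 at 5 µM and 19 for 20 against 5 µM. Of the 13 members past the low mark at 20 µM, 11 turned, among them PSMA7 (1.89), PSMB2 (0.39), PSMB7 (2.89), PSMD1 (1.44), PSMD3 (1.09), PSMD5 (1.33), PSMG3 (0.48) and PSMG4 (0.13). Both members past the mark at 5 µM turned, PSMD5 (0.31) and PSMG4 (0.12), as did 2 of 6 for 20 against 5 µM, PSMD3 (0.60) and PSMG3 (0.38), and the inducible PSMB8 (-0.14). The cause was not tested. No paired analysis was possible because each group had 1 array. No replicate could be left out for the same reason, and signals close to the detection threshold limit the ratios of PSMA8, PSMB11, PSME3 and PSMF1.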
